A study of Mus musculus with 27 samples.

Results

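Among cells sorted from mouse bone marrow, the P1 fraction was compared with the P2 fraction over every gene of the series' table of normalized counts. P1 cells were sorted as CD105- CD200+ and P2 cells as CD105- CD200-, both from marrow cells that carried the Prx1 reporter and lacked CD45, a surface protein of most blood cells. The libraries were taken by their labels, 3 of P1 and 3 of P2, from 27 libraries that also cover a CD105+ fraction (P3) and the same fractions of periosteum and muscle. All animals of the series were Prx1-CreER/Ai14/Rag1 mice of both sexes, 8 to 12 weeks old, given 2 injections of tamoxifen 48 hours apart and used 3 days after the last. In these mice the Prx1 promoter drives a Cre that tamoxifen switches on, and Ai14 then turns on the red protein tdTomato, so that the reporter marks cells in which the promoter was active and their descendants. Mice without Rag1 lack mature B and T cells. P1 and P2 shared all of this and, by their labels, differed in the CD200 gate. CD105 and CD200 were added to the sort to describe how the cells that descend from Prx1 expression differ among themselves.

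As background, Prx1 (gene Prrx1) is a homeobox factor of limb mesenchyme, and CD200 with CD105 (endoglin, gene Eng) is used to order skeletal stem and progenitor cells. Osteoblasts secrete type I collagen and the proteins that mineralize it, while stromal cells around the marrow sinusoids make Cxcl12 and Kitl, which keep blood stem cells in place. The marrow is also where red cells form: erythroblasts take up iron, make haem and globin, build a spectrin skeleton under their membrane, lose CD45 and divide before the nucleus is shed.

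The P1 cells carried the genes of bone-forming and marrow stromal cells at far higher levels than P2, and the P2 cells carried the genes of red cell formation and of dividing cells. Type I collagen (Col1a1 and Col1a2) made up 30.2%, 39.3% and 26.5% of the normalized counts of the 3 P1 libraries and 0.0417%, 0.00864% and 0.0222% of the P2 libraries. The 4 adult globin genes made up 0.719%, 0.527% and 2.89% in P1 and 44.2%, 47.3% and 44.4% in P2. Neither gene group overlapped between the fractions. The 10 entries with the highest mean in P1 were Col1a2, Col1a1, Bglap, Sparc, Bglap2, Ibsp, Col2a1, Serpinf1, Col11a2 and Spp1, mostly genes of bone and cartilage matrix. In P2 they were Hbb-bs, Hba-a2, Hba-a1, Hbb-bt, Gpx1, Car2, mt-Co1, Slc4a1, Alas2 and Hist1h2ap. In such sorted bulk samples, fewer cells of a type and less RNA per cell cannot be told apart.

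**Figure D1:**
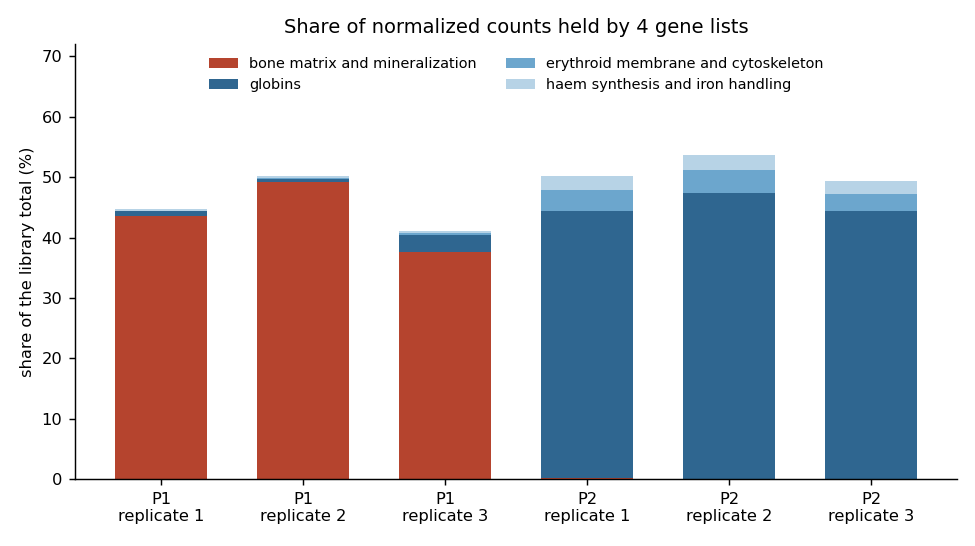
Share of each library's total normalized counts (percent, stacked bars) held by the lists for bone matrix, globins, erythroid membrane, and haem, in the 3 P1 and 3 P2 bone marrow libraries. Bone matrix genes hold 43.6%, 49.2% and 37.6% of the P1 totals and 0.195%, 0.0302% and 0.057% of the P2 totals, while globins fill much of every P2 bar.

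The libraries of a fraction resembled each other more than those of the other fraction. Pearson's r of log2 values over the tested genes was 0.914 to 0.919 within P1, 0.754 to 0.831 within P2 and 0.352 to 0.537 between them. Normalized counts summed to 17832375, 22076876 and 16782647 in P1 and to 18646507, 26232142 and 17678663 in P2. Fewer genes were above 0 in P1 (15937, 15771 and 15331) than in P2 (20611, 18543 and 21676). Of the single libraries, P1 replicate 3 held the most globin of its group, P2 replicate 1 the most bone matrix (Spp1 15403, Dmp1 1076) and P2 replicate 2 the most neutrophil RNA. An exact 0 in this table need not mean an absent transcript, since 7 genes in P1 and 10 in P2 are listed at 0 in 1 library and at 200 or more in the other 2 of that group. The libraries of a group are described as coming from separate mice, and all tissues and fractions as taken from the same animals, but no label says which animal gave which library. Every test here therefore treats the libraries as independent. The p-values and SEs rest on the spread between these samples, which limma moderated toward a trend of spread with level over all genes.

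Of 15505 genes with at least 10 normalized counts in at least 3 of the 6 libraries, 7310 (47.1%) passed limma's test at an adjusted p below 0.05 with a log2 fold change beyond 1.5 in either direction. In P1, 2966 genes (19.1%) were higher and 4344 (28%) lower, and the median log2 fold change over all tested genes was -0.24. These shares are the background for the list counts below. Such a gene is called changed in what follows, every gene named as rising or falling being one. Every log2 fold change, given below also as an amount after "rose by" or "changed by", is P1 minus P2 on the log2(normalized count + 1) scale, and adjusted p-values are limma's after Benjamini-Hochberg adjustment. In 218 of the genes higher and 95 of the genes lower in P1 the change exceeded 100-fold. The 3 values of P1 lay above all 3 of P2 in 4311 genes (27.8%) and below them in 5376 (34.7%). Where a library of the lower group is listed at 0, as for Gja1, Sec24d, Hoxa10 and Mef2c among others below, the fold change depends on the pseudocount of 1. Between the fractions 196 genes reached 10 in every P1 library and in no P2 library, and 1586 the reverse.

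With globins taking so much of the P2 totals, the comparison was repeated with every library set to an equal total without the 4 globin genes. P1 libraries hold 17704124, 21960453 and 16298192 counts outside these genes, and P2 libraries 10412312, 13820550 and 9835100. On this scale 7352 genes were changed, 1867 higher and 5485 lower in P1, so that 25.4% of the changed genes were higher in P1 against 40.6% on the authors' scale. The median of all genes moved from -0.24 to -0.94, and list counts on this scale follow those on the authors' scale. The background for list counts on this scale is 1867 genes higher and 5485 lower of 15505. With all lists of blood cells left out of the totals, 1662 genes were higher and 5916 lower, and 21.9% of the changed genes were higher in P1 with a median of -1.13.

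**Figure D2:**
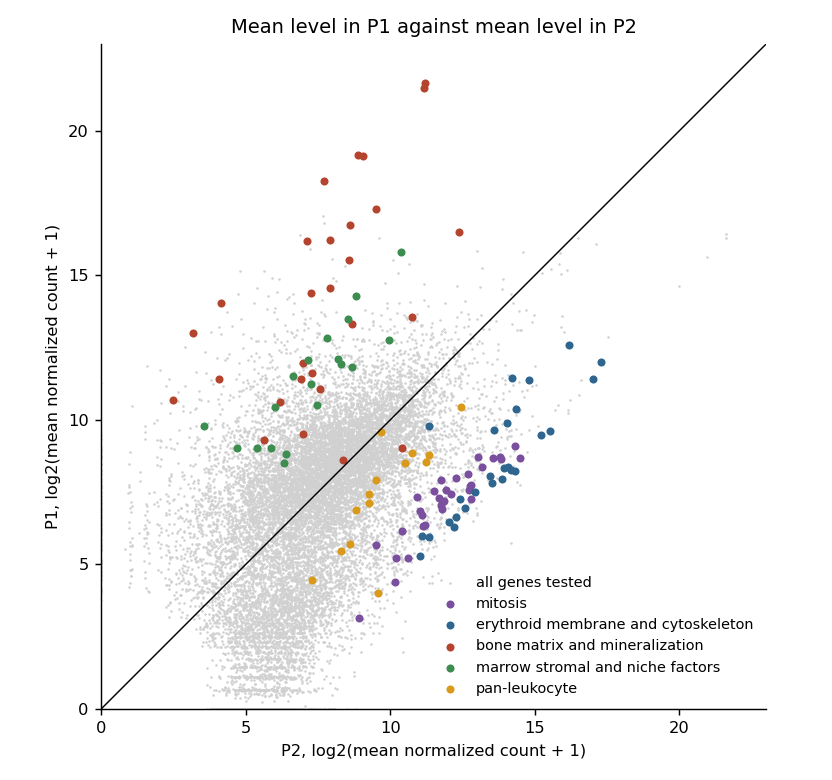
Log2 mean normalized count of each tested gene in P2 (x axis) against P1 (y axis), as points, with 5 gene lists in colour and a line at equal levels. The niche genes and nearly all bone matrix genes lie above the line (Ank below it), and the erythroid membrane, mitosis and most pan-leukocyte genes below it.

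The gene of the sorting marker followed the gate. Cd200 (ENSMUSG00000022661, GRCm38 chr16:45382135-45409053, minus strand), which codes for a membrane glycoprotein, stood at 6346, 7515 and 6315 in P1 and 72.6, 21.1 and 56.3 in P2. Every P1 library was far above every P2 library, with a log2 fold change of 7.21 ± 0.45 (SE, adjusted p = 1.38e-05) and a range of 6.31 to 7.68 over all alternative settings. P3 held 905, 473 and 451, between the other fractions. Eng, the gene of CD105, for which both fractions were negative, stood at 111, 129 and 5.18 in P1 and 97.4, 13.1 and 173 in P2 against 1739.5, 774 and 1072 in P3. The P1 and P2 values of Eng overlapped, at a log2 fold change of -0.48 ± 1.38 (SE, adjusted p = 0.786) that changed sign under 3 alternatives. Ptprc, which codes for CD45, stood at 61.8, 252 and 204 in P1 and 312, 690.2 and 829 in P2. All P1 values were below those of P2, at -1.93 ± 0.61 (SE, adjusted p = 0.0248), but 5 alternatives lost this call, with adjusted p-values of 0.0543 to 0.18.

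The Prx1 lineage genes differed between fractions sorted by the same reporter. Prrx1 stood at 2413, 1675 and 1819 in P1 and 90.8, 69.0 and 170.3 in P2, all P1 values being higher, with a log2 fold change of 4.24 ± 0.40 (SE, adjusted p = 8.39e-05). An entry that the table names TRANSGENES, whose sequence is not given in the sources used here, stood at 24200.2, 47049.8 and 32777 in P1 and 1296, 1234 and 1181 in P2 and at 7779, 4005 and 4187 in P3. It was present in all 6 libraries and higher in all 3 of P1, at 4.76 ± 0.35 (SE, adjusted p = 2.89e-05). The limb mesenchyme list gave 8 of 12 tested genes higher in P1, against 19.1% of all genes, and none lower, with a median of 3.93 (7 higher and a median of 3.23 without globins in the totals). Of its homeobox genes that pattern the limb, Hoxa10 rose by 6.07, Hoxa11 by 5.17, Hoxc10 by 6.21 and Shox2 by 4.94. Tbx4, a hindlimb factor, was not called at -1.98.

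**Figure D3:**
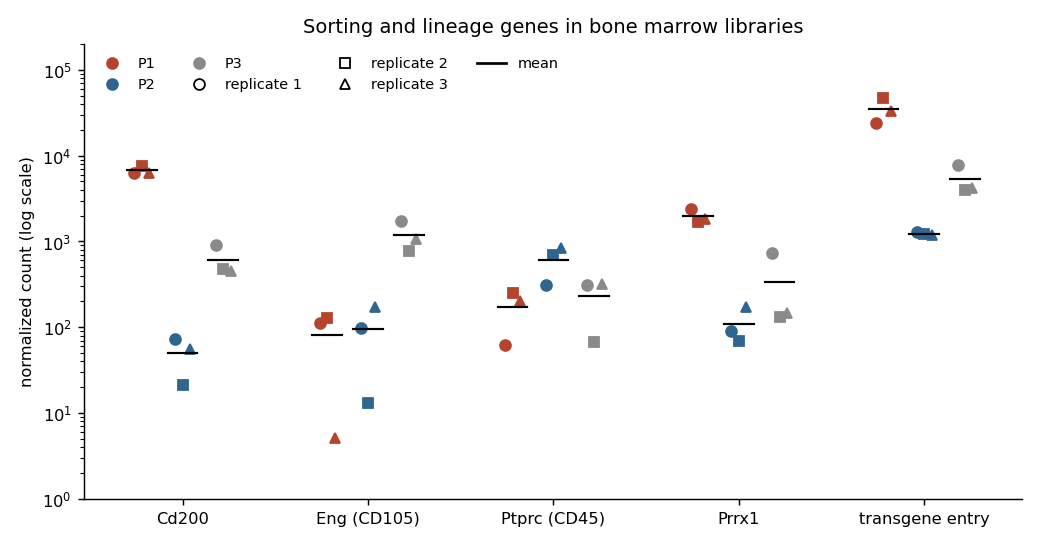
Normalized counts (log axis) of Cd200, Eng, Ptprc, Prrx1 and the transgene entry in each bone marrow library of P1, P2 and P3, with a line at each group mean. Cd200, Prrx1 and the transgene entry are higher in all P1 than in all P2 libraries, while the Eng values of P1 and P2 overlap.

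Type I collagen needs many helpers in the secretory pathway, and this machinery was higher in P1 almost as a whole. Of 28 genes for collagen processing and secretion 27 were called higher and none lower, with a median of 5.32 against -0.24 over all genes, and without globins in the totals 27 were higher with a median of 4.60. Serpinh1 (ENSMUSG00000070436, GRCm38 chr7:99345376-99353239, minus strand) codes for HSP47, the chaperone that collagen needs in the endoplasmic reticulum, and stood at 37695, 45541 and 26350.2 in P1 and 81.3, 0 and 0 in P2. Its values did not overlap, and it had the largest fold change of the genes named by rule, 13.00 ± 1.45 (SE, adjusted p = 0.00017). With 2 P2 libraries listed at 0, that value runs from 15.22 with a pseudocount of 0.1 to 11.43 with one of 5. Kdelr3, a receptor that returns proteins to the endoplasmic reticulum, stood at 9076, 11500.0 and 7913 in P1 and 5.94, 41.6 and 0 in P2, again without overlap, at 10.46 ± 1.10 (SE, adjusted p = 0.000131).

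The enzymes of each step moved the same way. Among those that hydroxylate collagen in the endoplasmic reticulum, Plod2 rose by 7.90, P4ha1 by 5.41, P4ha2 by 5.42 and P3h1 by 6.44. Of the folding and transport factors, Fkbp10 rose by 8.39 and Sec24d, a coat protein of vesicles that leave the endoplasmic reticulum, by 8.23. Outside the cell, the crosslinking enzyme Lox rose by 8.79, the procollagen protease Bmp1 by 7.78 and its enhancer Pcolce by 7.76. Creb3l1, a transcription factor of the secretory pathway in osteoblasts, rose by 7.59. P4ha3 was the member that was not called, at -1.29.

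Bone matrix genes were higher with it, 26 of 28 called higher and none lower, with a median of 7.20, and 1 was lower without P1 replicate 3 or P2 replicate 3. Without globins in the totals 25 were higher and 1 was lower, with a median of 6.48. Col1a2 stood at 2815259, 4585207 and 2357618 in P1 and 3963, 1254 and 1799 in P2, and Col1a1 at 2570531, 4087529.7 and 2095399 in P1 and 3806, 1013 and 2133 in P2. These are the chains of type I collagen, and no library of one fraction came near the other, with log2 fold changes of 10.55 ± 0.86 (SE, adjusted p = 4.48e-05) for Col1a2 and 10.44 ± 0.85 (SE, adjusted p = 4.51e-05) for Col1a1. Bglap2, an osteocalcin gene, stood at 407202, 280982 and 254932 in P1 and 359, 71.6 and 197 in P2, at 10.80 ± 0.56 (SE, adjusted p = 5.26e-06). Bglap, its close neighbour on the same chromosome, changed by 10.39, and how reads were split between these near-identical genes is not known. Sparc (osteonectin) rose by 10.06, Ibsp (bone sialoprotein) by 8.13 and Spp1 (osteopontin) by 6.55. Genes of mineralization rose less evenly, Ifitm5 by 9.91, Smpd3 by 7.42, Alpl (alkaline phosphatase) by 6.83 and Phospho1 by 3.70. Enpp1 and Ank, which supply the mineralization inhibitor pyrophosphate, were not called, at 0.37 and -1.40.

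Small leucine-rich proteoglycans, which coat collagen fibrils, gave 7 of 10 higher, against 19.1% of all genes, and none lower. Their median was 4.62 (7 higher and a median of 3.92 without globins). Dcn (decorin) stood at 82702, 99236 and 74841 in P1 and 164, 117 and 63.8 in P2, and Bgn (biglycan) at 46597, 54996 and 43050.3 in P1 and 166, 315 and 275 in P2. In both the P1 values were well above P2, with changes of 9.62 ± 0.38 (SE, adjusted p = 2.29e-06) and 7.62 ± 0.33 (SE, adjusted p = 2.82e-06). Of osteocyte genes 5 of 6 tested were higher, against 19.1% of all genes, and none lower. Their median was 4.23 (4 higher and a median of 3.52 without globins, 3 higher with the spread of all 27 libraries). Dmp1 and Phex, made by late osteoblasts and osteocytes, rose by 6.15 and 4.37, while Sost, the gene of sclerostin, did not reach the level needed for a test.

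Among osteoblast transcription factors 10 of 13 were higher, against 19.1% of all genes, and none lower. Their median was 4.21 (9 higher, 1 lower and a median of 3.49 without globins, and 1 lower also without P2 replicate 2). Runx2, which commits cells to the bone lineage, stood at 3110.1, 3061 and 4454 in P1 and 351, 188 and 103 in P2. Sp7 (osterix), which acts after Runx2, stood at 4222, 5189.8 and 4059 in P1 and 33.1, 25.2 and 0 in P2. Both were higher in every P1 library, Runx2 at 4.19 ± 0.44 (SE, adjusted p = 0.000131) and Sp7 at 8.86 ± 1.16 (SE, adjusted p = 0.000358). Dlx5 rose by 7.33 and Mef2c by 7.61, whereas Atf4 (-0.35), Msx2 (-0.43) and Dlx6 (-1.42) were not called.

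Receptors and junction proteins of osteoblasts gave 17 of 25 tested higher, against 19.1% of all genes, and none lower. Their median was 3.09 (15 higher, 1 lower and a median of 2.38 without globins). Pth1r, the parathyroid hormone receptor, stood at 7934, 18457 and 14355 in P1 and 58.2, 0 and 0 in P2, with no overlap and a change of 11.68 ± 1.38 (SE, adjusted p = 0.000221). Sfrp4, a secreted Wnt antagonist, stood at 7764, 3153 and 6539.9 in P1 and 0, 19.5 and 0 in P2, at 10.96 ± 1.12 (SE, adjusted p = 0.000113). These values depend on the pseudocount, from 13.90 with a pseudocount of 0.1 to 10.10 with one of 5 for Pth1r and from 13.19 with a pseudocount of 0.1 to 9.32 with one of 5 for Sfrp4. The gap junction gene Gja1 rose by 9.16, the osteoblast cadherin Cdh11 by 7.62, Fgfr1 by 5.75 and Pdgfra by 4.79. Of the pair that controls osteoclast formation, the ligand gene Tnfsf11 (RANKL) rose by 4.01 and its decoy receptor gene Tnfrsf11b (osteoprotegerin) by 6.36. The Wnt target genes Axin2 (-0.68) and Lef1 (-0.48) were not called.

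All 19 marrow stromal and niche genes were higher in P1, with a median of 4.13 (17 higher, none lower and 3.42 without globins). Cxcl12, the chemokine that retains blood stem cells, stood at 70149, 30282 and 71126 in P1 and 936, 2368 and 627 in P2, and P3 held 101059.7, 27731 and 30573. P1 was above P2 in every library, at 5.58 ± 0.56 (SE, adjusted p = 0.000102). Kitl (stem cell factor) rose by 4.53, the leptin receptor Lepr by 3.12, the adhesion receptor Vcam1 by 3.73 and the cytokine Il7 by 3.71. Of the transcription factors of these cells, Foxc1 rose by 4.15, Ebf1 by 3.17 and Ebf3 by 1.92.

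Other genes named by rule for their increase were of several kinds. Mamdc2, which codes for a proteoglycan, stood at 1601, 3240.1 and 2583 in P1 and is listed at 0 in all 3 P2 libraries, so that no fold change is given. The potassium channel gene Kcnk1 stood at 3308, 4993 and 2926 in P1 and 5.99, 0 and 0 in P2, and the receptor tyrosine phosphatase gene Ptprs at 7141, 8737 and 9070.1 in P1 and 36.0, 2.90 and 0 in P2. Both were higher in every P1 library, by 10.90 ± 0.87 (SE, adjusted p = 4.25e-05) and 10.62 ± 1.08 (SE, adjusted p = 0.000112), with ranges from 13.18 with a pseudocount of 0.1 to 9.13 with one of 5 for Kcnk1 and from 11.87 with a pseudocount of 0.1 to 9.46 with one of 5 for Ptprs. Beside these 10 genes and the sorting genes, members named here were the most abundant of their list or were chosen after their values were seen.

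Skeletal stem cell surface genes did not move as a block, with 4 of 13 tested higher and 2 lower in P1 and a median of 0.72 (1 higher, 2 lower and a median of -0.00067 without globins). Of all genes 19.1% were higher and 28% lower. Beside Cd200, the gene of the gate, Itga5 rose by 2.53 and Itgav, the integrin alpha V chain, by 2.10. Without globins in the totals Cd200 was the 1 gene still called higher, so Itga5 and Itgav lost their calls. Mcam (CD146) is listed at 0 in every P1 library and stood at 24.2, 85.9 and 135 in P2. Ngfr fell, with values of 6.79, 5.31 and 1.71 in P1 and 51.2, 53.3 and 145 in P2 and a change of -3.87 ± 0.89 (SE, adjusted p = 0.00594). Thy1 did not reach the level needed for a test, and Ly6a (Sca-1, 0.17) and Pdpn (podoplanin, 1.33) were not called.

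Globin genes were lower in P1 on both scales. All 6 globins that could be tested were called lower, against 28% of all genes, with a median of -5.61 (6 and -6.33 without globins in the totals). Hbb-bs (ENSMUSG00000052305, GRCm38 chr7:103826534-103828096, minus strand), an adult beta globin gene, stood at 42231, 39243 and 157259.6 in P1 and 2818895, 4163507 and 2647659 in P2. Every P1 library was well below every P2 library, at -5.62 ± 1.98 (SE, adjusted p = 0.038), and P1 replicate 3 was several-fold above the other P1 libraries. Hba-a1 changed by -5.60, Hba-a2 by -5.50 and Hbb-bt by -5.74, where reads shared between near-identical copies make the split uncertain. Without P1 replicate 1 only 3 of the 6 globins kept their call, without P1 replicate 2 only 2 and with a pseudocount of 0.1 only 3. These calls and the SE of Hbb-bs rest on the moderated spread, not on the spread of the globin values alone. The embryonic genes Hbb-y, Hbb-bh1, Hbb-bh2 and Hba-x were too low to test.

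The rest of the red cell program moved with the globins. Haem synthesis and iron genes gave 18 of 20 lower and none higher, with a median of -3.99 (19 and -4.71 without globins). Alas2, the erythroid enzyme that starts haem synthesis, stood at 1389.9, 1634 and 4983 in P1 and 85157, 131137 and 79395 in P2, at -5.42 ± 0.56 (SE, adjusted p = 0.000116). Tfrc, the transferrin receptor, changed by -6.11 and Slc25a37 (mitoferrin) by -5.52, and Ftl1, a ferritin light chain gene, was not called at -0.79. Of the erythroid membrane and cytoskeleton list all 27 tested genes were lower, with a median of -5.69 (27 and -6.41 without globins). Slc4a1 (band 3), the anion exchanger of the red cell membrane, stood at 1095, 2054 and 5085 in P1 and 113673, 188988 and 90932 in P2. No value overlapped, with a change of -5.79 ± 0.61 (SE, adjusted p = 0.000135). The spectrin gene Sptb changed by -5.65, and the erythropoietin receptor gene Epor by -5.19. Erythroid transcription factors gave 14 of 15 lower and none higher, with a median of -5.78 (14 and -6.49 without globins). Gata1, the master regulator of the lineage, stood at 119.9, 29.4 and 199 in P1 and 5344, 6559.8 and 3734 in P2, at -5.81 ± 0.62 (SE, adjusted p = 0.000141). Klf1 changed by -5.52 and Tal1 by -7.34, and Ldb1, a cofactor of wide expression, was not called at 0.90.

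The promoter windows of 3 genes are shown as examples, chosen because they hold the searched letters of GATA, KLF or RUNX factors. Of the 26 genes looked up 20 had a window, and 6 of these held a match to any of the 3 motifs, namely Hbb-bs, Alas2, Kdelr3, Espl1 and Samd11 (GATA letters in both) and Pth1r (KLF letters). The other 14 held none, among them Hba-a1, Hba-a2, Hbb-bt, Col1a2, Serpinh1 and Bglap. They are the 250 bases before the RefSeq start in GRCm38.p6, read along the gene's strand: chr7:103827929-103828178 (minus strand) for Hbb-bs, chrX:150547167-150547416 (plus strand) for Alas2 and chr15:79516158-79516407 (plus strand) for Kdelr3. Capitals mark a match to any of the searched motifs on either strand. The motif searched for the GATA family was AGATAA. For factors of the KLF family the letters were CACACCC instead. The search for factors of the RUNX family used the letters AACCACA throughout.
Hbb-bs: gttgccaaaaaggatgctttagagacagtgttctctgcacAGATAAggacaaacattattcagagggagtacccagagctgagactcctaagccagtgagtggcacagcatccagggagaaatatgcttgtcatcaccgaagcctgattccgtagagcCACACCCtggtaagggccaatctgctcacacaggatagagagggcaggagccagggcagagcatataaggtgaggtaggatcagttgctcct
Alas2: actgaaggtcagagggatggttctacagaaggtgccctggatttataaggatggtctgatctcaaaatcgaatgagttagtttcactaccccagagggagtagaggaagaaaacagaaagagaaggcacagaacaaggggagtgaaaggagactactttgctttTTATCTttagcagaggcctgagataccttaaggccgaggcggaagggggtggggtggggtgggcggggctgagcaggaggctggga
Kdelr3: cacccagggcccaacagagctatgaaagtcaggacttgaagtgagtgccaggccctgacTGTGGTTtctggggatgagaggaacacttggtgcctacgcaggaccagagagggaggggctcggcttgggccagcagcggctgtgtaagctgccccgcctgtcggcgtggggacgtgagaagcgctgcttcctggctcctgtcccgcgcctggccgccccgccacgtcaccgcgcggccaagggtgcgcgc
In Hbb-bs the GATA letters begin 210 bases and the KLF letters 92 bases before the start, on the gene's strand. In Alas2 the GATA letters lie on the opposite strand, with the first base 86 before the start, and in Kdelr3 the RUNX letters lie on the opposite strand, with the first base 191 before it. Both strands of windows from 250 bases before to 50 after each start were searched, and the 3 sets of letters do not overlap each other in these windows. GATA letters stood in 5.42% of the windows of genes higher in P1, 9.39% of those lower, 6.37% of those tested and not called and 11.2% of all 32851 windows. RUNX letters stood in 3.35%, 4.77%, 3.59% and 5.27% in the same order, and KLF letters in 8.13%, 9.25%, 8.21% and 7.95%. These are matches of letters, not sites of binding.

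Dividing-cell genes were lower in P1 throughout the lists. Of 36 DNA replication genes 35 were lower and none higher, with a median of -4.31 (36 and -5.03 without globins). All 32 mitosis genes were lower, with a median of -4.92 (32 and -5.64 without globins). Mki67, the gene of the Ki-67 antigen of cycling cells, stood at 361, 177 and 682 in P1 and 28231, 22863 and 16912 in P2. Top2a, which untangles chromosomes, stood at 364, 211 and 652 in P1 and 15315, 12283 and 7975 in P2. No P1 library came near P2, with changes of -5.97 ± 0.47 (SE, adjusted p = 3.96e-05) and -4.95 ± 0.44 (SE, adjusted p = 5.91e-05). Mcm2, part of the helicase that opens replication origins, changed by -4.52, the origin factor Cdc6 by -6.52, Rrm2 of ribonucleotide reductase by -6.17 and Cdk1 by -5.17. Rfc3 was the replication gene that was not called, at -1.24. The summed level of the mitosis list was 4417 to 9516 in P1, 130377 to 229920.0 in P2 and 51234 to 86270.3 in P3. As a share of the library total it was 0.0226% to 0.0567% in P1, 0.737% to 1.06% in P2 and 0.593% to 0.868% in P3. By share, P2 and P3 overlapped.

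Cyclins and CDK inhibitors split. In this list 5 of 19 were higher and 12 lower, with a median of -2.30 (5, 12 and -3.01 without globins), beside 19.1% and 28% of all genes. The inhibitor gene Cdkn1a (p21) stood at 7734, 7032 and 6263 in P1 and 232, 268 and 108 in P2, and Cdkn1c (p57) at 64.0, 121 and 197 in P1 and 0, 0 and 3.20 in P2. Both were higher in every P1 library, at 5.20 ± 0.37 (SE, adjusted p = 2.67e-05) and 6.17 ± 0.93 (SE, adjusted p = 0.000718). Cdkn2b stood at 13.4, 17.5 and 33.7 in P1 and is listed at 0 in all P2 libraries. The other inhibitors fell on the log2 scale, with changes of -3.32 for Cdkn2a, -3.65 for Cdkn2c, -4.11 for Cdkn2d and -2.30 for Cdkn1b. Ccnd2 and Cdk4, which act early in the cycle, rose by 2.66 and 2.34, while Ccne1 and E2f1, of entry into DNA synthesis, changed by -6.54 and -5.71.

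Immediate early genes, which respond within minutes to serum, stress and tissue handling, gave 7 of 13 higher in P1 and 1 lower. Of all genes 19.1% were higher and 28% lower. The list median was 2.18 (5 higher, 2 lower and a median of 1.46 without globins, and 2 lower also without P1 replicate 3). Fos stood at 17087, 13339.6 and 9546 in P1 and 463, 546 and 979.9 in P2, and Egr1 at 3763, 4149.9 and 3362 in P1 and 144, 898 and 36.8 in P2. P1 was higher in every library, at 4.36 ± 0.37 (SE, adjusted p = 5.31e-05) and 4.46 ± 0.92 (SE, adjusted p = 0.00346). Fosb stood at 139, 60.1 and 169 in P1 and is listed at 0 in all P2 libraries. Btg2 was the member that fell, at -3.08 ± 0.35 (SE, adjusted p = 0.000177). The time from tissue to lysis of the fractions is not given in the sources used here, and its part was not tested.

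**Figure D4:**
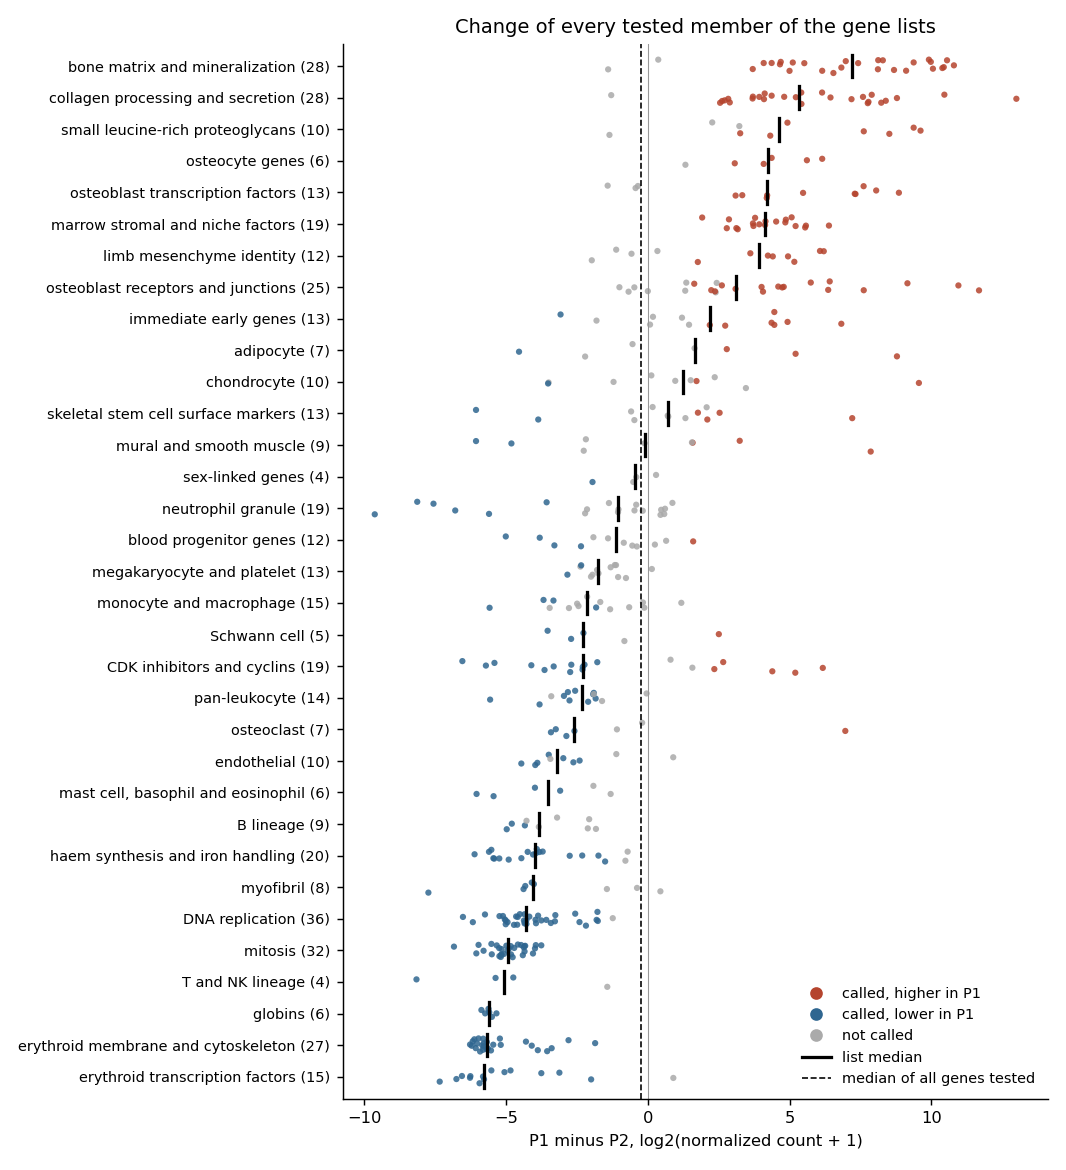
Log2 fold change of P1 against P2 (x axis) for every tested member of each gene list (rows), with the list median and a dashed line at the median of all tested genes, -0.24. Red and blue points are called higher and lower, grey points are not called. Most members of the bone, collagen and stromal lists lie to the right, and the globin, haem, erythroid and cell division lists to the left.

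The pan-leukocyte list, of genes that most white blood cells share, had most of its members lower in P1. It gave 10 of 14 lower, against 28% of all genes, and none higher, with a median of -2.34 (12 without globins). Its sum was 2512 to 6840 in P1 and 10757 to 27655 in P2. Without P1 replicate 1 or without P2 replicate 2 only 6 were lower, and 4 with the spread of all 27 libraries. Ikzf1, a transcription factor of lymphoid cells, stood at 11.1, 15.1 and 19.2 in P1 and 607, 872 and 779 in P2, at -5.56 ± 0.56 (SE, adjusted p = 0.000106). Of neutrophil granule genes 6 of 19 were lower, a share near the 28% of all genes, and none higher, with a median of -1.05 (8 and -1.77 without globins), and 12 without P2 replicate 1. The sum of that list was 27708 to 87980.1 in P1 and 49540 to 301666 in P2, the highest in P2 replicate 2.

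Within the neutrophil list, Elane (neutrophil elastase) stood at 0, 42.9 and 113 in P1 and 9855, 38912 and 6581 in P2, and Ctsg (cathepsin G) at 0, 61.8 and 1.70 in P1 and 3134, 7158 and 167 in P2. P1 was below P2 in every library, at -9.63 ± 1.503 (SE, adjusted p = 0.000842) and -8.14 ± 1.71 (SE, adjusted p = 0.00388), and the value of Elane runs from -10.76 with a pseudocount of 0.1 to -8.80 with one of 5. Mpo (myeloperoxidase) changed by -7.56. S100a8, an abundant calcium-binding protein of mature neutrophils, stood at 5139.6, 8912 and 17709 in P1 and 3916, 51399.6 and 35971 in P2, with overlapping values and a change of -1.05 ± 0.92 (SE, adjusted p = 0.355). Ngp (0.60), Camp (0.45) and Ltf (0.87), of the secondary granules, were not called. Whether the changes of these genes differ from each other was not tested.

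Other lists of blood cells were small. On the authors' scale the share called lower in the monocyte, megakaryocyte, B lineage and blood progenitor lists was near or below the 28% of all genes. Without globins 5485 of 15505 genes were lower, and the shares of the monocyte, megakaryocyte and B lineage lists were above that. Monocyte and macrophage genes gave 4 of 15 tested lower and none higher, with a median of -2.14 (8 lower without globins), and Adgre1 (F4/80) is listed at 0 in every P1 library. Megakaryocyte genes gave 2 of 13 lower (7 without globins), with 0 without P2 replicate 1 or 2, 1 without P1 replicate 2, 4 without P1 replicate 3 and 9 without P2 replicate 3. B lineage genes gave 3 of 9 tested lower (6 without globins), 8 without P1 replicate 3 and 1 without each other library, while Pax5 was too low to test. Of the 10 T and NK genes only 4 could be tested, and 3 of these were lower (4 without globins). Cd3e, Cd247 and Il7r were among those too low to test. Nkg7, a granule protein gene of killer cells, stood at 3.43, 17.9 and 0 in P1 and 939, 2662 and 787 in P2, with no overlap, at -8.16 ± 1.08 (SE, adjusted p = 0.000392). This 1 gene held most of the list's sum in every P2 library, 1264 to 2871. Mast cell, basophil and eosinophil genes gave 4 of 6 tested lower on both scales. Blood progenitor genes gave 4 of 12 lower, Myb by -5.01, and 1 higher (Meis1, 1.60), with 0 higher and 4 lower without globins. The call of Meis1 was also lost with equal totals, quantile normalization, the replicate block, eBayes without trend, the spread of all 27 libraries and without any single library other than P2 replicate 3. The part of these cells in the other results was not tested.

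Cell types of solid tissue were tested in the same way, with 19.1% of all genes called higher and 28% lower for comparison. Endothelial genes gave 7 of 10 tested lower and none higher, with a median of -3.21 (8 lower without globins, 2 with quantile normalization), and Cdh5 and Cldn5 were too low to test. Their sum was 171 to 265 in P1, 1254 to 2085 in P2 and 4916 to 23724 in P3. Mural cell genes gave 3 of 9 higher and 2 lower (2 and 3 without globins), Cspg4 (NG2) rising by 7.86. Osteoclast genes gave 4 of 7 lower and 1 higher, Ctsk at 6.97, a protease gene that marrow stromal cells also express, with the same counts without globins. Adipocyte genes gave 3 of 7 higher and 1 lower (3 and 2 without globins), among them Adipoq at 5.21 and Car3 at 8.79, with Plin1 and Cidec too low to test. Schwann cell genes gave 1 of 5 tested higher and 3 lower (the same without globins, and 1 lower without P2 replicate 1).

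Chondrocyte genes gave 2 of 10 tested higher and 1 lower, with a median of 1.24 (1, 2 and 0.53 without globins). The share higher was near the 19.1% of all genes, and the share lower was below the 28% of all genes. Col2a1, the collagen of cartilage, stood at 143665, 171864 and 89106 in P1 and 243, 70.8 and 290.0 in P2, higher in all P1 libraries at 9.56 ± 0.54 (SE, adjusted p = 8.14e-06). Acan, the cartilage proteoglycan, was not called at -1.21, and Matn1, Matn3 and Snorc were too low to test. The second gene higher, Comp, lost its call without any single library, and Sox5, the gene lower, lost it without P1 replicate 2 or 3 or P2 replicate 1 or 3. Myofibril genes gave 5 of 8 tested lower and none higher on both scales, 3 without P1 replicate 2, P1 replicate 3 or P2 replicate 1. Ttn (titin), the spring protein of muscle, stood at 2.47, 8.52 and 2.49 in P1 and 2128, 328 and 1614 in P2, at -7.74 ± 0.90 (SE, adjusted p = 0.00021). Of the Y-linked genes Kdm5d was lower at -1.95, a call lost without P2 replicate 3, and the other 3 tested were not called, from -0.51 to 0.29.

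The remaining genes named by rule for their decrease in P1 were of several kinds. Sh3tc2 stood at 0, 0 and 8.58 in P1 and 1226, 1953 and 962 in P2, and Sowaha at 1.70, 1.77 and 54.8 in P1 and 1871, 3572 and 2287 in P2. Apol8, of the apolipoprotein L family, stood at 0, 19.5 and 54.7 in P1 and 2962, 4569 and 2206 in P2, and Samd11 at 0, 0 and 46.2 in P1 and 773, 957 and 749 in P2. All P1 values were below those of P2, with changes of -9.28, -8.38, -8.21 and -7.83. Espl1 (separase), the protease that parts sister chromatids, stood at 0, 0 and 112 in P1 and 723, 1960.2 and 1255 in P2, and Kntc1, of the kinetochore, at 0, 1.77 and 13.7 in P1 and 605, 899 and 828 in P2. They changed by -7.97 ± 1.65 (SE, adjusted p = 0.00355) and -7.80 ± 1.03 (SE, adjusted p = 0.00038), and with P1 libraries at 0 that of Espl1 runs from -10.19 with a pseudocount of 0.1 to -6.41 with one of 5. None of the 20 genes named by rule for their change lost its call under any alternative. They were picked in these same data as called genes with large changes, no overlap and a mean of at least 500 in the higher group. Their kept calls are therefore no independent check.

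The same sort was made in periosteum and muscle, and the P1 to P2 change of bone marrow was tested against theirs with all 27 libraries. Of 18443 genes, 1337 (7.25%) differed from the periosteum change, 492 (2.67%) with a higher and 845 (4.58%) with a lower value in marrow. Against muscle 4092 (22.2%) differed, 1380 (7.48%) higher and 2712 (14.7%) lower. The median of these differences was -0.66 and -0.88, and under equal totals without globins -1.20 and -2.05, where 20.9% and 12.2% of the genes that differed were higher in marrow against 36.8% and 33.7%. With quantile normalization they were 60% and 51.2%. Both comparisons share the marrow libraries, and the tissues of an animal were not paired.

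The collagen processing list stood out from periosteum in 20 of 28 genes, and from muscle in 21, all with a larger increase in marrow, where 2.67% and 7.48% of all genes were called in that direction. Without globins in the totals it was 20 genes for periosteum and 13 for muscle, with 1 in the other direction. Serpinh1 averaged 4857 in P1 and 2170.2 in P2 in periosteum and 1719 in P1 and 859 in P2 in muscle, so that the marrow change exceeded theirs by 11.75 ± 1.36 (SE, adjusted p = 6.02e-06) and 11.98 ± 1.36 (SE, adjusted p = 1.5e-06). For Kdelr3 the excess was 8.92 ± 1.11 (SE, adjusted p = 1.68e-05) over periosteum and 9.10 ± 1.11 (SE, adjusted p = 4.8e-06) over muscle. Of bone matrix genes 12 of 28 rose more in marrow than in periosteum and 12 more than in muscle. Col1a1 averaged 769474 in P1 and 6522 in P2 in periosteum and 98729 in P1 and 21288 in P2 in muscle, with an excess of 3.57 ± 0.80 (SE, adjusted p = 0.00631) and 8.23 ± 0.80 (SE, adjusted p = 1.77e-07). With quantile normalization the former was 1.21 and lost its call (adjusted p = 0.459). The transgene entry also rose more in marrow, by 4.28 ± 0.49 (SE, adjusted p = 6.09e-06) over periosteum and 4.98 ± 0.49 (SE, adjusted p = 2.58e-07) over muscle. For Cd200 neither difference passed the test, at -0.30 ± 1.39 (SE, adjusted p = 0.936) from periosteum and 2.79 ± 1.39 (SE, adjusted p = 0.15) from muscle. Prrx1 passed it against muscle, at 4.32 ± 1.18 (SE, adjusted p = 0.0111), and not against periosteum, at 1.38 ± 1.18 (SE, adjusted p = 0.546).

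Slc4a1, of the erythroid membrane list, averaged 175 in P1 and 71064 in P2 in periosteum and 26.1 in P1 and 3081 in P2 in muscle. Of 28 erythroid membrane genes 11 had a smaller decrease in marrow than in periosteum, and none a larger one (7 without globins in the totals or with quantile normalization, 6 without marrow P1 replicate 3, 7 without marrow P2 replicate 1 or 3). Against muscle 5 had a larger decrease, a share near the 14.7% of all genes, and 11 without globins. In the same direction haem genes gave 10 of 20 with a larger decrease than in muscle, mitosis genes 11 of 32 and replication genes 19 of 36, or 16, 22 and 27 without globins. The count over all genes in this direction rose too without globins, from 2712 to 4644 of 18443. For mitosis genes the count was 5 without any marrow library but P1 replicate 3 and without muscle P1 replicate 3, and 6 without muscle P2 replicate 3. Against periosteum limma called 0 genes of these 3 lists, with 6 haem, 3 mitosis and 4 replication genes at an unadjusted p below 0.05, and up to 3 of a list were called under the alternatives. Elane is listed at 0 in every P1 and P2 library of periosteum and muscle, so that its differences of -9.63 from both are its marrow change (adjusted p = 0.0203 and 0.0091). Cdkn1a averaged 5252 in P1 and 2549 in P2 in periosteum and 3247 in P1 and 2234 in P2 in muscle, and rose more in marrow, by 4.09 ± 0.66 (SE, adjusted p = 0.000312) and 4.61 ± 0.66 (SE, adjusted p = 3.37e-05).

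**Figure D5:**
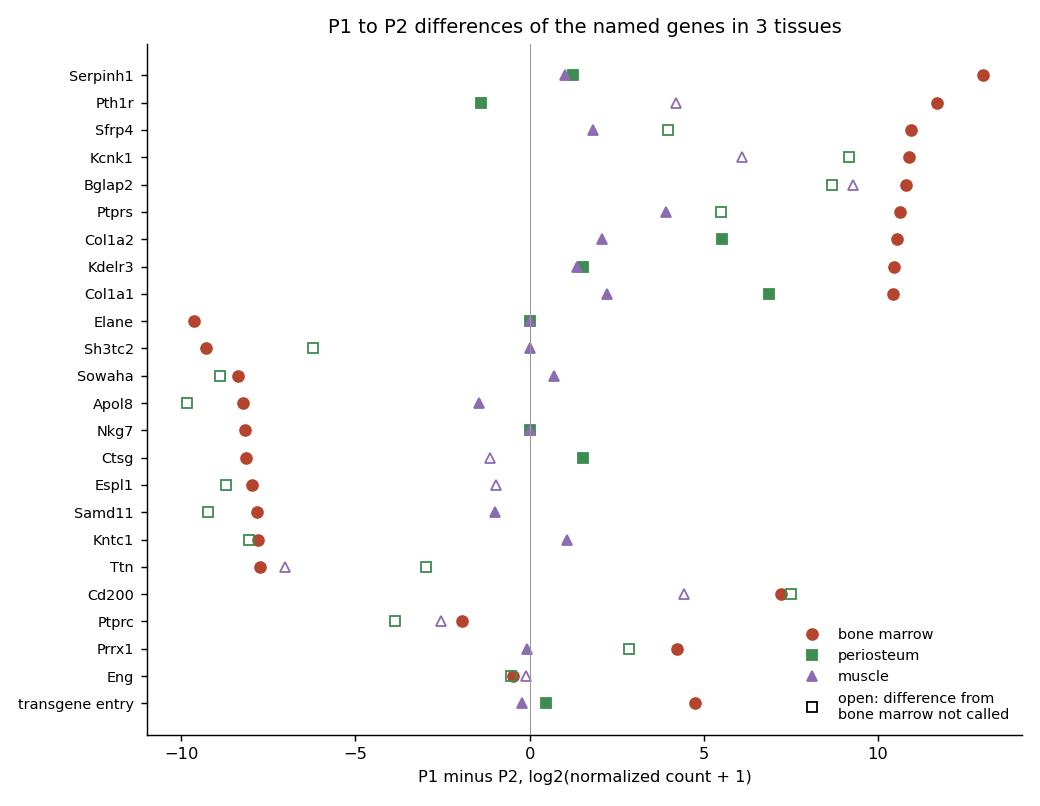
Log2 fold change of P1 against P2 (x axis) in bone marrow, periosteum and muscle for the genes named by rule (rows, without Mamdc2). Filled symbols mark tissues whose change differed from bone marrow by the test, as for Serpinh1 in both tissues, and open symbols those that were not called, as for Cd200.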

How the data were processed

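RNA of sorted bone marrow cells was amplified with SMART-Seq v4 and made into Nextera XT libraries. The authors trimmed reads with Trim Galore, aligned them with STAR and handled counts with DESeq2. The genome build and the counting tool are not given in the sources used here. The deposited table holds normalized counts, a signal value per gene and library. Low values were not whole multiples of a step per library (9.76% to 28.1% within 0.02), so no reads were recovered, no count test was run and depth in reads is unknown.

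The 6 libraries of P1 and P2 were compared with limma 3.58.1 (lmFit, eBayes with trend) in R 4.3.3 on log2(normalized count + 1), over genes with at least 10 in at least 3 libraries, which removed 14649 of 30154 entries. A change needed an adjusted p (Benjamini-Hochberg) below 0.05 and a log2 fold change beyond 1.5, the study's thresholds. Differences between tissues were contrasts over 9 groups and 27 libraries, with the same thresholds and at least 10 in at least 3 of the 27. Lists are described by counts and medians. Named by rule were the sorting and lineage genes, the 10 largest changes in each direction among called genes without overlap and with a mean of at least 500 in the higher group, and the 5 most abundant members of each list. The groups, members and lists were chosen with earlier results of these data known. The lists were bone matrix, osteoblast transcription factors, osteocyte, collagen processing, small leucine-rich proteoglycans, receptors and junctions, niche, limb mesenchyme, stem cell surface, globins, haem, erythroid membrane, erythroid transcription factors, blood progenitor, neutrophil, monocyte, pan-leukocyte, megakaryocyte, B, T and NK, mast cell, osteoclast, endothelial, mural, chondrocyte, adipocyte, myofibril, Schwann, replication, mitosis, cyclins, immediate early and sex-linked genes.

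Alternatives were other pseudocounts, filters and thresholds, rescaled totals, quantile normalization, a block for the replicate number, no trend in eBayes, more libraries in the fit and each library left out. Totals without the most abundant entries and a median set to 0 were added after the data were seen. Residuals of P1 and P2 libraries of one number had r of 0.029, 0.0077 and -0.081, and those of other numbers -0.104 to 0.092. These values cannot tell whether equal numbers mark the same animal, and the libraries were not paired in the main fit. Positions are from GENCODE M21 (GRCm38), in which 29732 identifiers were found, and promoters from RefSeq (GRCm38.p6). The fit was tested on simulated data. Tables were summarised in Python 3.11.15 (pandas 2.3.3 with numpy 2.4.6) and drawn with matplotlib 3.10.9. Columns of other fractions and tissues entered only where named. Some genes of the lists are not reported here by name.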

Additional observations from a re-analysis of the deposited data

Results flagged for a closer look

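Results are given here because the P1 to P2 change of bone marrow differed from that of another tissue by the contrast of the 2 changes, in log2 units of marrow minus the other tissue. Against periosteum this held for 1337 genes. The genes named for their increase in marrow had larger increases there for Pth1r (13.1), Serpinh1 (11.7), Kdelr3 (8.92), Col1a2 (5.04) and Col1a1 (3.57). Pth1r, the parathyroid hormone receptor gene, averaged 764 in P1 and 1551 in P2 of periosteum, the opposite order of means to marrow. The granule genes Ctsg (-9.66), Elane (-9.63) and Nkg7 (-8.16) fell in marrow and showed no decrease in periosteum. Elane and Nkg7 are listed at 0 in every P1 and P2 library of periosteum. Ctsg averaged 7.64 in P1 and 0 in P2 there.

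Against muscle the changes of 4092 genes differed. Larger increases in marrow were found for Serpinh1 (12), Sfrp4 (9.13), Kdelr3 (9.1), Col1a2 (8.47), Col1a1 (8.23) and Ptprs (6.72). Changes were more negative in marrow for Elane (-9.63), Sh3tc2 (-9.28), Sowaha (-9.08), Kntc1 (-8.88), Nkg7 (-8.16), Samd11 (-6.82) and Apol8 (-6.76). Of these, Elane, Nkg7 and Sh3tc2 are listed at 0 in every P1 and P2 library of muscle. In muscle Sowaha averaged 27.4 in P1 and 26.9 in P2, and Kntc1 averaged 8.13 in P1 and 5.66 in P2. Genes with libraries at 0 carry values that depend on the pseudocount, and both comparisons share the marrow libraries.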

How the results depend on the processing

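The number of changed genes was 7310 and lay between 5323 and 8323 over all alternatives. The 20 genes named by rule for their change kept their calls in each, having been picked in these same data for large changes without overlap. Genes higher in P1 fell in number from 2966 to 1867 with totals without globins, 1662 without the blood cell lists and 1876 with the spread of 27 libraries. Genes lower in P1 fell from 4344 to 2785 with a mean of at least 50, where 12237 genes were tested instead of 15505. With that filter 2836 genes were higher, 50.5% of the changed genes, and the median of all genes was 0.16 instead of -0.24. With 1 library left out 6205 to 7322 genes were changed, 2392 to 2961 of them higher and 3646 to 4361 lower. The replicate number as a block gave 7201 changed genes in bone marrow, 1303 against periosteum and 4059 against muscle. It moved list counts by over 1.5 times for blood progenitor genes (0 higher against 1) and chondrocyte genes (1 higher and 2 lower against 2 and 1) and changed no call of a gene named by rule for its change or sort. Differences from periosteum numbered 745 with a mean of at least 50, where 12381 genes were tested instead of 18443. They numbered 953 to 2108 with 1 library left out (2108 without periosteum P2 replicate 1), against 1337. Differences from muscle numbered 2366 with a mean of at least 50, again over 12381 genes, and 2947 to 4458 with 1 library left out, against 4092. The change of Eng, -0.48, turned positive with quantile normalization (0.14) and ran from -1.55 to 0.95 with 1 library left out, being positive without P1 replicate 3 (0.95) and without P2 replicate 3 (0.27). Of the values of single genes and lists, 1376 were labelled the same, with a gene's sign and call kept or a list count within 1.5 times. Of the others 90 list counts moved, 5 calls were lost and 3 changes turned sign, and the causes were not tested. Depth in reads is unknown, so no counting error is given, and 3 libraries per group limit the precision of genes with low or 0 values.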

Other observations

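Outside the sorted pair, the lists were also summed in the P3 libraries of the marrow. There the bone matrix list summed to 110077 to 237676, against 6307132 to 10862969 in P1 and 7931 to 36271 in P2. The osteoblast transcription factor list of P3 summed to 2965 to 5794, overlapping P2 at 3524 to 5920 and below P1 at 21212 to 26947. The globin list of P3, at 258138 to 441848, lay within the range of P1, at 116499.6 to 484663, and below P2, at 7846845 to 12418589. The erythroid membrane list of P3 summed to 119662 to 247546, against 18137 to 38539 in P1 and 496374 to 973247 in P2. The niche list of P3, at 59415 to 213653, overlapped that of P1, at 75594 to 162475, while P2 held 4568 to 6291. The P3 totals, 8639660 to 10311876, were below those of every P1 and P2 library, so sums and shares order the fractions differently. As a share of the library total, the globin list held 2.99% to 4.28% in P3, above P1 at 0.528% to 2.89%. The osteoblast transcription factor list held 0.0288% to 0.0671% in P3, above P2 at 0.0199% to 0.0280%. These sums and shares are values only and were not tested.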
